A study of Mus musculus with 20 samples.

Results

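The genes of the major histocompatibility complex (MHC) pathway are followed here as 10 members, taken as the rows of the count files whose gene symbol was on the list: H2-K1, H2-D1, B2m, Tap1, Tapbp and Psmb8 of the class I pathway, and H2-Aa, H2-Ab1, Cd74 and Ciita of the class II pathway. All 10 were found among 24062 gene symbols, and all 10 passed the filter on low counts, with 19209 genes tested. The study asked how gene expression in skin lymphatic vessels changes over the day. Lymphatic endothelial cells (LECs), sorted as live podoplanin+CD31+ cells from ear skin of wild type C57BL/6 mice at postnatal day 56, were collected at zeitgeber times ZT1, ZT7, ZT13 and ZT19, counted in h after lights on in a 12-h light and 12-h dark cycle. Each time point had 5 replicates, each a pool of 4 ears from 2 mice, and each was sequenced as 1 full-length cDNA library without molecular identifiers.

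Class I molecules show peptides from a cell's own cytosol to CD8+ T cells. A heavy chain (H2-K1 or H2-D1) pairs with the light chain B2m, the immunoproteasome subunit Psmb8 helps to cut the peptides, the Tap1 and Tap2 pump carries them into the endoplasmic reticulum, and Tapbp (tapasin) bridges the pump and the empty heavy chain. Class II molecules show peptides from taken-up material to CD4+ T cells. They consist of an alpha chain (H2-Aa) and a beta chain (H2-Ab1), are guarded by the invariant chain Cd74, and are switched on by the transactivator Ciita, mainly in dendritic cells, macrophages and B cells. LECs are known to carry class I at the surface, and to present antigen to T cells in lymph nodes.

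Of these genes 7 sit in the MHC region of chromosome 17, with H2-K1 at chr17:33996017-34000347 and H2-D1 at chr17:35262730-35267499 of mouse genome build GRCm38 (mm10), as drawn by GENCODE M21. Tap1 (chr17:34187553-34197225) and Psmb8 (chr17:34197721-34201454) are neighbours, as are H2-Ab1 (chr17:34257689-34269419) and H2-Aa (chr17:34282744-34287823), whereas B2m lies at chr2:122147686-122153083 and Ciita at chr16:10480059-10528418. The stretch before the start site is shown for H2-K1, B2m and H2-Aa because these are the heavy chain, the light chain and the class II chain whose levels are compared next, and their promoters are known to share a box bound by the factor NF-Y. Each stretch runs 5′ to 3′ on the gene's own strand, from 190 to 11 bases before the RefSeq start on build GRCm38.p6, at chr17:34000358-34000537 (minus strand) for H2-K1, chr2:122147497-122147676 (plus strand) for B2m and chr17:34287834-34288013 (minus strand) for H2-Aa. Capitals mark matches to 4 motifs searched on both strands, namely the Y box ATTGG, the kappa-B core GGGATTCC of the class I enhancer A, the interferon response motif GAAANNGAA and the clock E-box CACGTG.
H2-K1: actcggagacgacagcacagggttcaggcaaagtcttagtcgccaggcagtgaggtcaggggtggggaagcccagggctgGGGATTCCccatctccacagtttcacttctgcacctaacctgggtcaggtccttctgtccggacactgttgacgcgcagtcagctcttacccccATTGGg
B2m: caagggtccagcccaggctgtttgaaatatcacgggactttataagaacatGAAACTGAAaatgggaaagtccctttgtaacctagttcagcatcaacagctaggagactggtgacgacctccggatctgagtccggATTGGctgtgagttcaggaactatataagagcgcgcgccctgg
H2-Aa: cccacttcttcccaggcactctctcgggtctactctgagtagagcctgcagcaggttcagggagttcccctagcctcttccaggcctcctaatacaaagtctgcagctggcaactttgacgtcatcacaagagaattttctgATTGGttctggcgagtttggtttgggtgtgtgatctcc

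Windows of 300 bases around the start (250 before, 50 after) were searched for 7 members, without H2-Ab1, Cd74 and Ciita. They were set against 32851 mouse windows of the same length. GGGATTCC was held by H2-K1 and H2-D1 alone among the 7, against 1.06% of all windows. ATTGG was held by H2-K1, H2-D1, B2m, Tap1, Tapbp and H2-Aa, but it is short and stood in 37.4% of all windows. GAAANNGAA was found in B2m, against 8.56% of all windows, and CACGTG in none of the 7, against 7.15%. No motif match overlapped another in the stretches printed. The H2-K1 and H2-D1 windows were 90.4% identical over 228 aligned bases, and the kappa-B stretch shows how alike they are, at chr17:34000439-34000468 (minus strand) for H2-K1 and chr17:35262913-35262942 (plus strand) for H2-D1, where it falls inside the gene as GENCODE M21 draws it.
H2-K1: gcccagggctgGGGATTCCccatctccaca
H2-D1: gcccagggctgGGGATTCCccatctcctca

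The libraries held 4475111 to 42002363 counts on genes. The share of reads on genes, of those on genes or on no annotated feature, ran from 12.7% to 81.6%, and was 20.2% to 29.5% at ZT1 but 35.0% to 81.6% at ZT19, so that this share and the time of day are partly confounded. All 7 lymphatic markers were found in every library, with a summed level of 43860 to 108090 normalized counts. Keratinocyte markers (10 of 10 detected) were also abundant, summing to 32974 to 67387 at ZT1 and 58069 to 173395 at ZT7, then 9984 to 29746 at ZT13 and 89937 to 180873 at ZT19. Blood endothelial markers (6 of 6 detected) summed to 3962 to 14814 over all libraries, with Plvap at 1192 and Emcn at 751 normalized counts per kb of exon. Fibroblast markers (7 of 7 detected) summed to 260 to 16163, with a median of 9209 at ZT1 and 6942 at ZT19, and lower ones of 1861 at ZT7 and 2822 at ZT13. The part of these cells in the results was not tested. In bulk libraries, fewer cells of a type and less RNA per cell cannot be told apart.

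The first result is one of level. The libraries of sorted LECs held abundant RNA of the class I chains and Tapbp, mid-range levels of Psmb8 and Tap1, and less of the class II members. Per kb of exon, mean normalized counts over the 20 libraries were 5632 for B2m, 1543 for H2-D1, 1175 for H2-K1, 486 for Tapbp, 113 for Psmb8 and 56.6 for Tap1. The class II members followed at 23.1 for Cd74, 18.97 for H2-Ab1, 8.26 for H2-Aa and 5.64 for Ciita. On this scale B2m ranked at the 99.7th percentile of 19002 tested genes with a length, close to the lymphatic marker Lyve1 at 5687 per kb, whereas Ciita ranked at the 12.7th and H2-Aa at the 22.9th. H2-D1, H2-K1 and Tapbp ranked at the 98.5th, 97.9th and 94.2nd percentile. The members between lay closer together, with Psmb8 at the 75.1st, Tap1 at the 59.9th, Cd74 at the 43.6th and H2-Ab1 at the 40.1st. In raw reads, H2-K1, H2-D1 and B2m together took 340829 counts over the 20 libraries, and H2-Aa, H2-Ab1 and Cd74 together 2761.

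The order from B2m to Tapbp was kept by most libraries. B2m was above H2-D1 per kb in 19 of 20 libraries, H2-K1 above Tapbp in 20 and Tapbp above Psmb8 in 20, while H2-D1 was above H2-K1 in 15 and Psmb8 above Tap1 in 15. Tap1 was above Cd74 in 17 libraries. H2-Ab1 was above H2-Aa in 16, an order that depends on the lengths used. These were 2568 nt for H2-Ab1 and 3798 nt for H2-Aa, with 940 and 949 reads over all libraries. Cd74 and H2-Ab1 were not ordered beyond their spread (Cd74 higher in 11 of 20), nor were H2-Aa and Ciita (H2-Aa higher in 11 of 20). The 10 other genes of class I loading ran from 34.5 per kb (the peptidase Erap1, below every class I member) to 1242 (Psme2), with Calr at 1085, Tap2 at 211 and Tapbpl at 111 between them, and the immunoproteasome subunits Psmb9 and Psmb10 at 43.7 and 275.

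**Figure D1:**
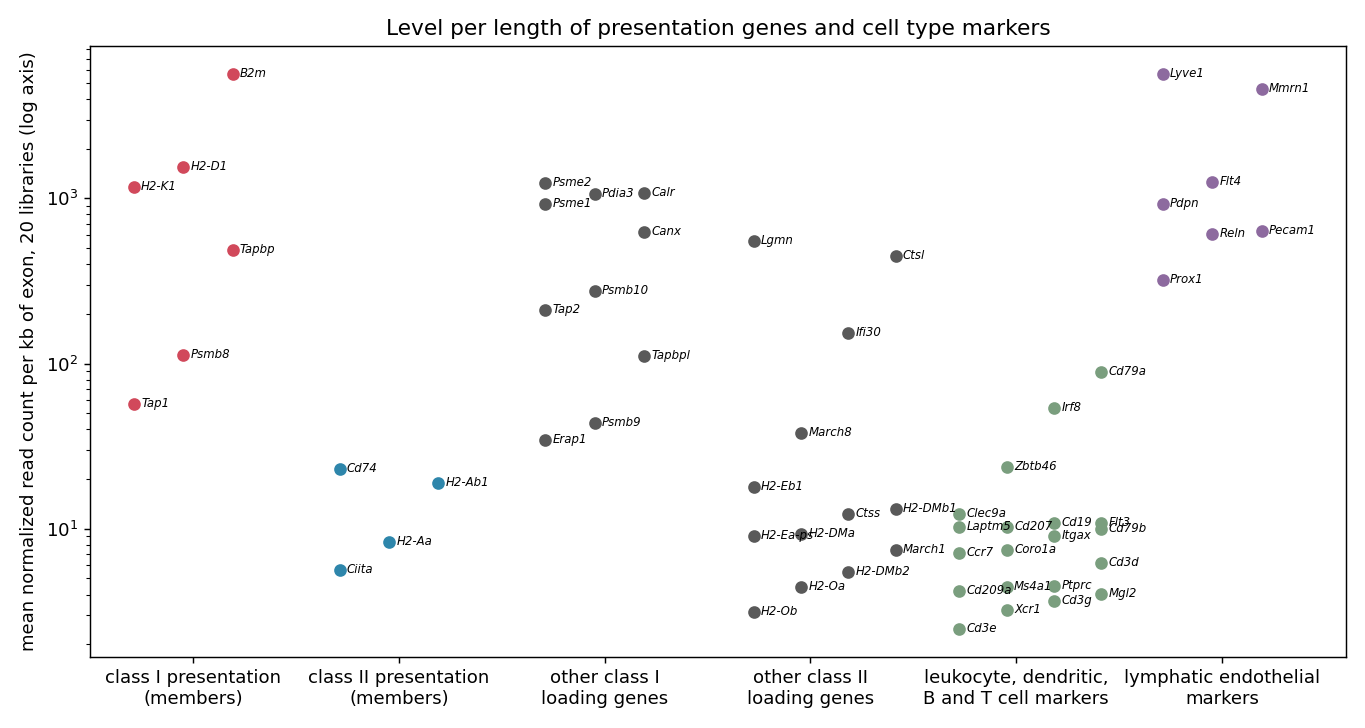
Mean normalized read count per kb of exon over 20 libraries (log axis) for class I and class II members, other genes of both pathways and cell type markers, 1 point per gene, genes listed at 0 left out. The 6 class I members lie between 56.6 and 5632, above all 4 class II members, which lie between 5.64 and 23.1, a range that also holds 10 of the 20 leukocyte, dendritic, B and T cell markers, with 7 below it and 3 above.

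Of 13 other genes of the class II chains and loading, 6 lay within the class II members' range of 5.64 to 23.1 per kb, 3 below it and 4 above. H2-Eb1, a further beta chain, stood at 17.8 per kb, H2-DMa, which helps load peptide, at 9.3 and Ctss, the protease that trims the invariant chain, at 12.3. The lysosomal enzymes Lgmn, Ctsl and Ifi30 were higher, at 552, 449 and 154 per kb. Markers of other cells spanned this range. Among them, Ptprc (CD45, carried by all leukocytes) stood at 4.5 per kb, Itgax (CD11c) at 9.1 and Cd207 (langerin, of Langerhans cells) at 10.3. The summed leukocyte list (3 of 3 genes detected, each at 0 in at least 1 library) ran from 72.7 to 295 normalized counts at ZT1 and 8.0 to 310.0 at ZT7, then 41.0 to 216 at ZT13 and 7.73 to 165 at ZT19. The T cell list (3 of 4 genes in the files) ran from 0 to 84.7 over all libraries and the B cell list (4 of 4, with Cd79a highest at 88.6 per kb) from 93.9 to 389. The macrophage list (7 of 7 genes detected, 6 at 0 in at least 1 library) ran from 253 to 1473 over all libraries, with 5 genes within the class II members' range per kb and Mrc1 and Cd68 above it at 66.6 and 52.5. The dendritic and Langerhans cell list (10 of 10 genes detected, 8 at 0 in at least 1 library) ran from 412 to 1248 over all libraries, most of it from Irf8 at 53.5 and Zbtb46 at 23.5 per kb. The part of these cells in the class II reads was not tested.

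The members of the class II pathway did not rise and fall together. At ZT13 replicate 2, H2-Aa had 0 reads and H2-Ab1 had 91. At ZT19 replicate 5 the reverse held, with 98 reads for H2-Aa and 0 for H2-Ab1. At ZT19 replicate 3, Cd74 had 0 reads beside 80 of H2-Aa and 58 of H2-Ab1. At least 1 of H2-Aa, H2-Ab1 and Cd74 was at 0 in 5 of 20 libraries, and in reads not set against length, H2-Aa was above H2-Ab1 in 7 (in 2 of these by 49 reads against 48) and below it in 12. A count of 0 allows up to 3 counts, or 7.14e-06% to 6.7e-05% of a library's counts on genes, for counting error only. Once each time point's mean was removed, the log2 levels of the 6 pairs of class II members had correlations of 0.00061 to 0.168 over the 20 libraries, against a median of 0.43 (lowest -0.28, highest 0.78, for H2-K1 with H2-D1) for the 15 pairs of class I members. These correlations describe libraries that share depth and scaling, and the class II pairs rest on few reads.

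edgeR called no member between time points, and DESeq2 called H2-K1 and Ciita in some pairs. With edgeR's quasi-likelihood test, 0 of 10 members were called among the 4 time points at an adjusted p of 0.05, with 0.422% of all genes tested called, and 0 of 10 for a 24-h rhythm, with 0.0312% called. Adjusted p-values among the 4 time points ran from 0.351 (Tap1) to 0.957 (Tapbp), and 0 members had an unadjusted p under 0.05 there, although 15.7% of all genes did. For the rhythm, 0 members and 9.23% of all genes had an unadjusted p under 0.05. In the 6 pairs of time points, edgeR called 0 members each, against 0.00521% of all genes for ZT7 and ZT1, 0.0208% for ZT13 and ZT1, 0.0156% for ZT19 and ZT1, 0.0937% for ZT13 and ZT7, 0.0156% for ZT19 and ZT7 and 0.588% for ZT19 and ZT13. DESeq2 called 0 members among the 4 time points (3.22% of all genes), 0 for the rhythm (0.683%) and 0 in ZT7 and ZT1 (0.137%), ZT13 and ZT1 (0.624%) and ZT13 and ZT7 (0.589%). It called H2-K1 and Ciita between ZT19 and ZT1 (10.4%) and Ciita alone between ZT19 and ZT7 (10.8%) and between ZT19 and ZT13 (9.26%). At an unadjusted edgeR p under 0.05, 1 of 10 members passed between ZT7 and ZT1 (4.97% of all genes), 0 between ZT13 and ZT1 (5.37%), 3 between ZT19 and ZT1 (21.6%), 0 between ZT13 and ZT7 (2.59%), 1 between ZT19 and ZT7 (19.7%) and 2 between ZT19 and ZT13 (19.2%). These members were H2-K1, H2-D1, Tap1, Psmb8 and Ciita, and their values by library follow.

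**Figure D2:**
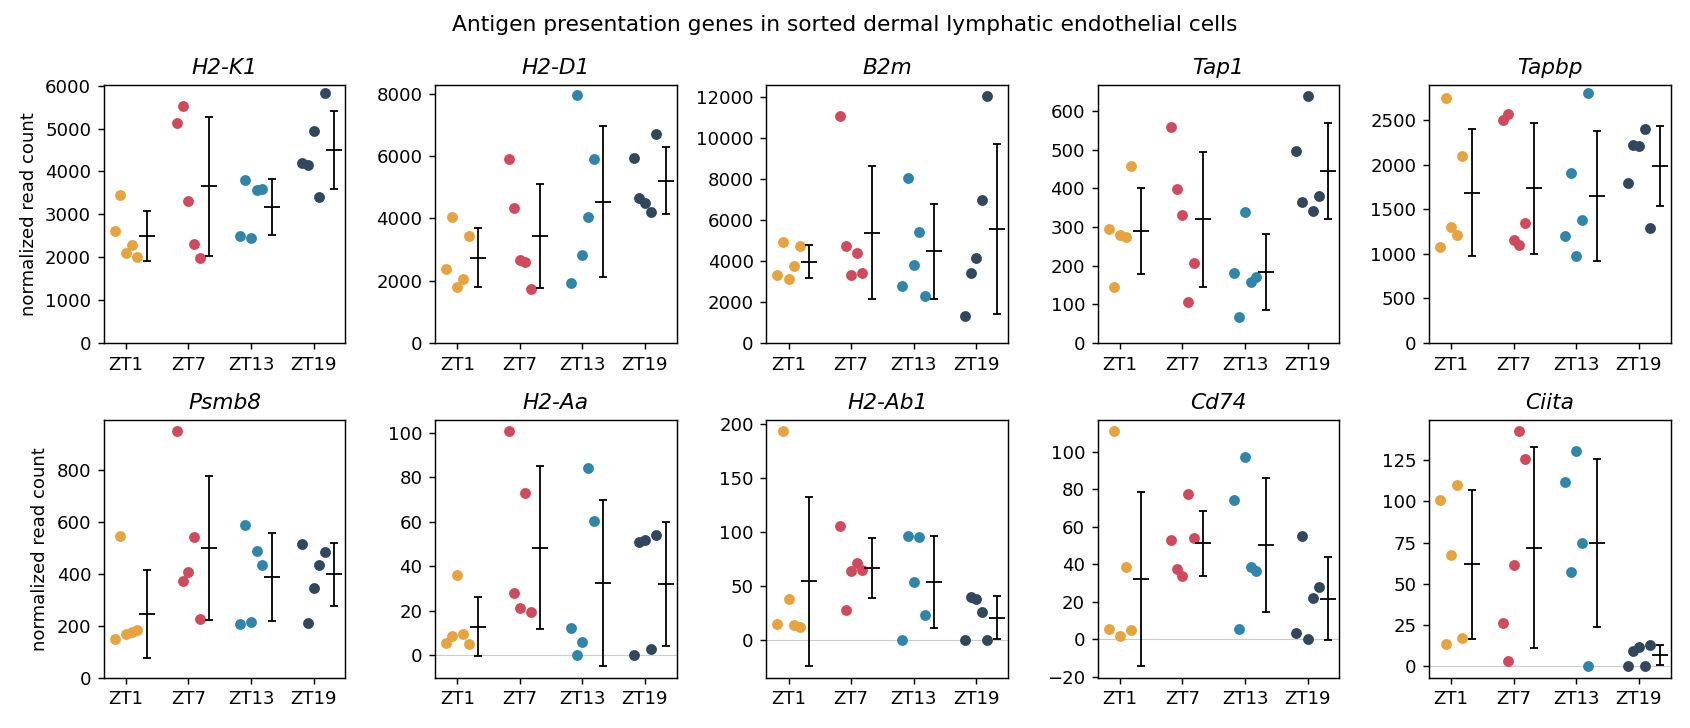
Normalized read counts of the 10 members by time point, 1 point per library in replicate order, with the mean and SD (n = 5) in black beside them. H2-K1 and H2-D1 are lowest on average at ZT1 and highest at ZT19, Tap1 is lowest at ZT13, and Ciita lies between 0 and 12.7 in all 5 ZT19 libraries.

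H2-K1, the heavy chain of the K locus, had normalized counts of 2611, 3451, 2090.2, 2283 and 2007 at ZT1 and 4186, 4138, 4944, 3412 and 5821 at ZT19, in replicate order. At ZT7 it had 5122, 5529, 3300.5, 2308 and 1981, and at ZT13 2482, 3799, 2448, 3569 and 3587. The ZT19 libraries lay above all but 1 ZT1 library, and ZT7 spanned nearly the whole range. The fitted difference of ZT19 from ZT1 was 0.85 ± 0.33 on the log2 scale (SE), with an adjusted p of 0.136 in edgeR, while the median over all genes was -0.39.

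H2-D1, the heavy chain of the D locus, had 2374, 4026, 1803, 2058 and 3429 normalized counts at ZT1 and 5939, 4649, 4504, 4193 and 6716 at ZT19. At ZT7 it had 5911, 4335, 2657, 2589 and 1717, and at ZT13 1931, 7969, 2811, 4046 and 5916. ZT1 and ZT19 did not overlap, and the other time points covered both. The difference of ZT19 from ZT1 was 0.93 ± 0.40 (log2, SE), with an adjusted p of 0.171 in edgeR. Groups without overlap between ZT19 and ZT1 were seen for 2 of 10 members (H2-D1 and Ciita), against 8.56% of all genes tested.

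The heavy chains also moved with the share of reads on genes. In a split made after the values were seen, 9 libraries (2 of ZT7, 2 of ZT13 and all 5 of ZT19) had over 30% of reads on genes and 11 had under 30%. H2-D1 ran from 4193 to 7969 normalized counts in the 9 and from 1717 to 4046 in the 11, without overlap whatever the time point, which held for 1 of 10 members and 0.161% of all genes tested in this direction (lower in the 9: 0 members, 2.1%). H2-K1 ran from 3412 to 5821 in the 9 and from 1981 to 3569 in the 11. Within ZT7, the 2 libraries over 30% had 5122 and 5529 for H2-K1, and the 3 others 1981 to 3300.5. Within ZT13 they came close, at 3587 and 3799 over 30% and 2448 to 3569 under it. For H2-D1 within ZT7, the libraries over 30% had 5911 and 4335, and the 3 others 1717 to 2657. Within ZT13, those over 30% had 7969 and 5916 for H2-D1, and the 3 others 1931 to 4046. With this share as a covariate, the difference of ZT19 from ZT1 was 0.36 ± 0.34 for H2-K1 (adjusted p 0.808 in edgeR) and 0.21 ± 0.41 for H2-D1 (adjusted p 0.927). At ZT1 no library was over 30% and at ZT19 none under it, so within this split ZT1 and ZT19 could not be compared. The fit with the covariate compared these time points only by extrapolation.

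**Figure D3:**
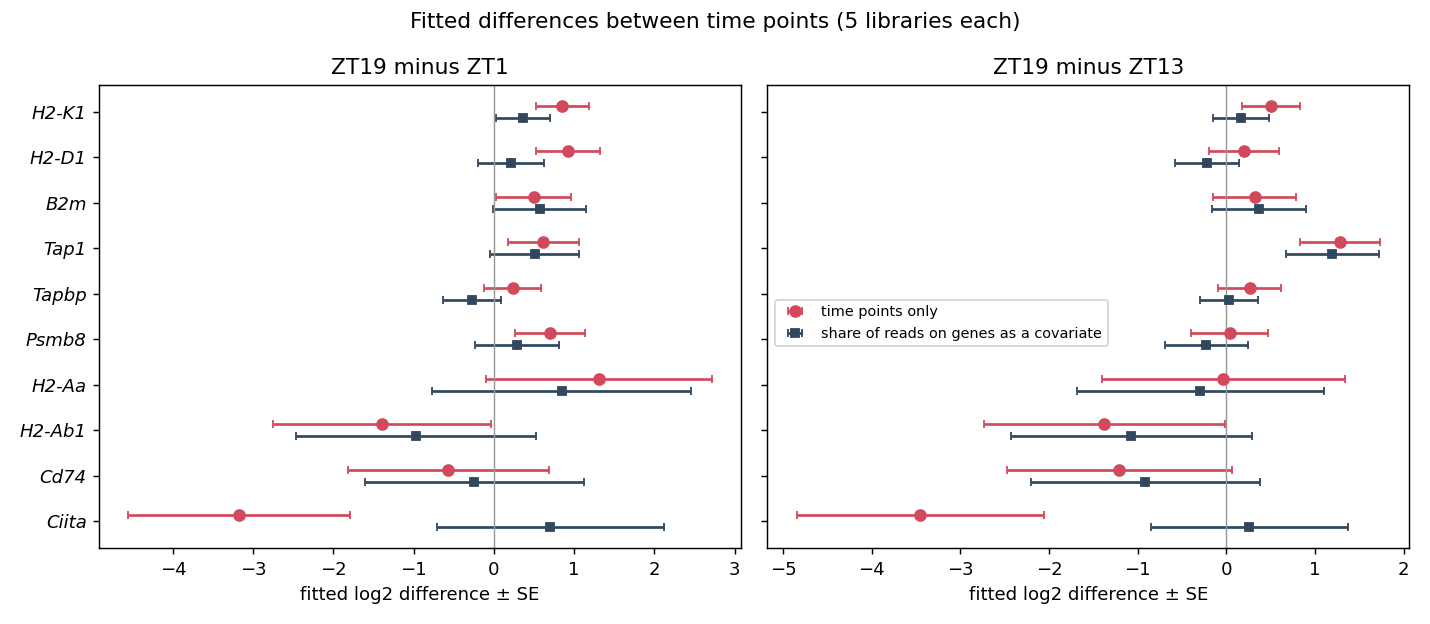
Fitted log2 differences with SE of the 10 members, ZT19 minus ZT1 on the left and ZT19 minus ZT13 on the right, without (circles) and with (squares) the percent of reads on genes in the fit. H2-K1 and H2-D1 move towards 0 from 0.85 and 0.93 on the left, Tap1 stays at 1.28 and 1.196 on the right, and Ciita goes from -3.18 to 0.70 on the left and from -3.45 to 0.26 on the right.

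B2m, the light chain of every class I molecule, had the widest spread of the class I members, with a CV of 56.8% over the 20 libraries. It had 3314, 4915, 3117, 3728 and 4712 normalized counts at ZT1 and 11080.0, 4718, 3298, 4399.5 and 3387 at ZT7. It had 2775, 8039.7, 3796, 5428 and 2303 at ZT13 and 1298, 3423, 4138, 6964 and 12043 at ZT19. The lowest and the highest library were both from ZT19, and the difference of ZT19 from ZT1 was 0.49 ± 0.47 (log2, SE; adjusted p 0.550 in edgeR). B2m and its heavy chains were not in a fixed ratio, since the ratio of H2-K1 and H2-D1 reads to B2m reads was 1.15 to 1.52 at ZT1 but 1.04 to 7.80 at ZT19, and 7.80 came from ZT19 replicate 1, where B2m was lowest. The genes most like B2m once the means of the time points were removed were S100a11 (Pearson's r 0.95), Dynll1 (0.93), Rnasek (0.93), Atp5g3 (0.93) and Chchd10 (0.92), over 20 libraries and 10714 genes searched. Those most like H2-K1 were Snapc2 (0.87), Galt (0.86), Wbp2 (0.85), Serping1 (0.85) and Sdf4 (0.85). The same measure for H2-Ab1 reached 0.77 (Tbc1d10b), then Ncoa5 (0.73), Sharpin (0.72), Zfpm1 (0.69) and Scn3b (0.67), and for Cd74 0.75 (Appbp2), then Gpx7 (0.73), Rps6kc1 (0.72), Atrip (0.71) and D5Ertd579e (0.67).

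Tap1, a chain of the peptide pump, was lowest at ZT13. It had 181, 67.9, 339, 159 and 172 normalized counts at ZT13 and 498, 365, 639.5, 342 and 380.1 at ZT19. At ZT1 it had 295, 146, 278, 275 and 457, and at ZT7 559, 399.6, 330.0, 105 and 207. ZT13 and ZT19 did not overlap, by a margin of 339 to 342, and 2.48% of all genes tested did not overlap between these time points (1 of 10 members). The difference of ZT19 from ZT13 was 1.28 ± 0.45 (log2, SE), with an adjusted p of 0.120 in edgeR and a median over all genes of -0.22, and 1.196 ± 0.53 (adjusted p 0.310) with the percent of reads on genes added to the fit. Among the libraries with over 30% of reads on genes, Tap1 had 67.9 and 172 at ZT13, 399.6 and 559 at ZT7 and 342 to 639.5 at ZT19. There the difference of ZT19 from ZT13 was 1.77 ± 0.65 (adjusted p 0.606 in edgeR). Summed keratinocyte markers also had their lowest median at ZT13 (22067 normalized counts) and their highest at ZT19 (144286). The part of these cells in the level of Tap1 was not tested.

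Tap2, the partner chain of the pump, had its lowest mean at another time point. It averaged 413 ± 83.2 normalized counts at ZT1 (SD, n = 5) and 865 ± 442 at ZT7, then 999 ± 751 at ZT13 and 915 ± 447 at ZT19. The ratio of Tap2 to Tap1 reads therefore ran from 0.675 to 2.82 at ZT1 and from 1.82 to 13.5 at ZT13, and 13.5 came from ZT13 replicate 5. Tap2 differed by 1.15 ± 0.41 (log2, SE) between ZT19 and ZT1, with an adjusted p of 0.113 in edgeR. Tap1 lies next to Psmb9 on the opposite strand, with start windows that share 275 bases, and since the library kit does not mark strand, reads where their gene models overlap cannot be told apart. Tapbp, the bridge to the heavy chain, differed least by its adjusted p of 0.957 among the 4 time points in edgeR, with means of 1686 ± 715 at ZT1 and 1734 ± 736 at ZT7, then 1652 ± 729.9 at ZT13 and 1983 ± 450.03 at ZT19 (SD, n = 5).

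Psmb8, the immunoproteasome subunit that takes the place of Psmb5, had 150.0, 545, 168, 178 and 184 normalized counts at ZT1 and 951, 372, 406, 542 and 225 at ZT7. It had 208, 589, 214, 490.3 and 435 at ZT13 and 514, 210.2, 347, 436 and 484 at ZT19. Of the ZT1 libraries 4 lay below every library of the other time points, and the other, replicate 2, lay among the high ones. The difference of ZT7 from ZT1 was 1.03 ± 0.44 (log2, SE), with an adjusted p of 0.923 in edgeR. Psmb5, the constitutive subunit, averaged 552 ± 108 at ZT1 and 569 ± 396 at ZT7, then 442 ± 110.2 at ZT13 and 1120.2 ± 587 at ZT19 (SD, n = 5). Its difference of ZT19 from ZT13 was 1.34 ± 0.39 (log2, SE; adjusted p 0.091 in edgeR). Summed keratinocyte markers were likewise lowest at ZT13 and highest at ZT19, with medians of 22067 and 144286. The part of these cells in the level of Psmb5 was not tested. The ratio of Psmb8 to Psmb5 reads, which needs no scaling between libraries, was 0.297 to 0.768 at ZT1 and 0.609 to 1.41 at ZT7, then 0.532 to 1.19 at ZT13 and 0.226 to 0.752 at ZT19. Its median was 0.361 at ZT1 and 0.975 at ZT7, then 0.758 at ZT13 and 0.401 at ZT19, and the time points overlapped. The ratios of the other immunoproteasome subunits to their constitutive counterparts were not low at ZT1. Psmb10 to Psmb7 had medians of 0.705, 0.663, 0.755 and 0.413 at ZT1, ZT7, ZT13 and ZT19, and Psmb9 to Psmb6 had 0.0505, 0.0574, 0.0563 and 0.0275, each lowest at ZT19.

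**Figure D4:**
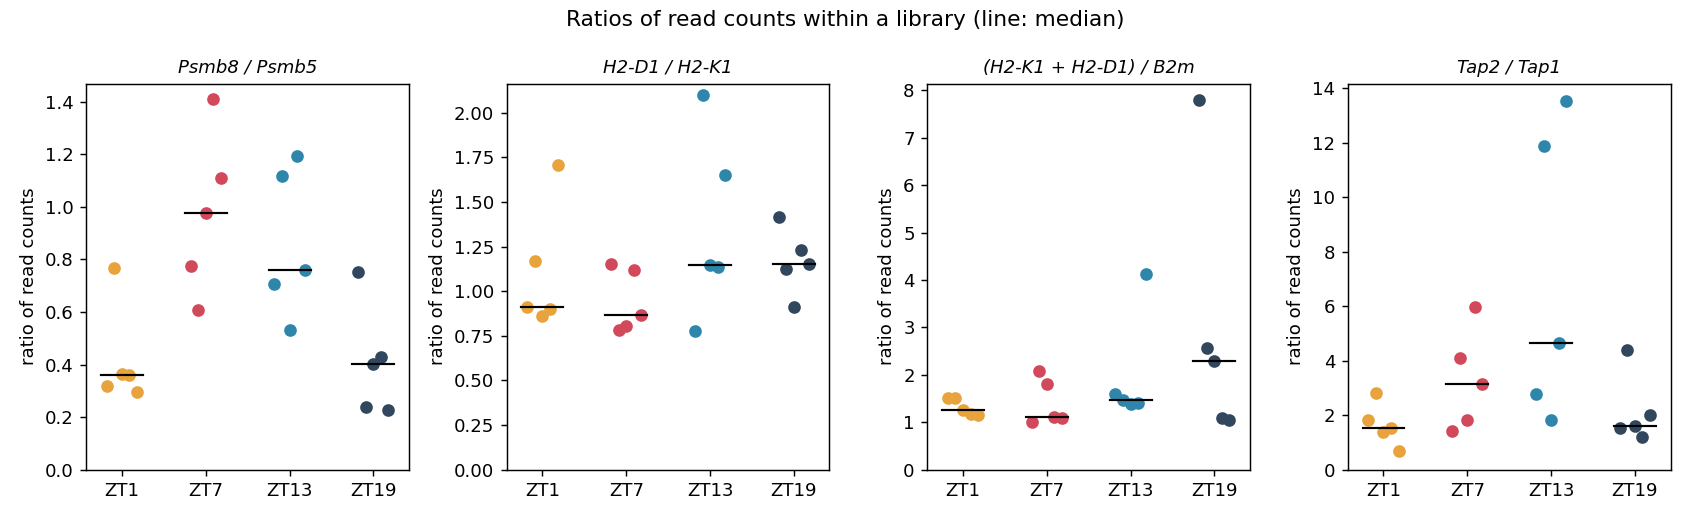
Ratios of read counts within each library at ZT1, ZT7, ZT13 and ZT19, 1 point per library, with the median as a line, for Psmb8 to Psmb5, H2-D1 to H2-K1, both heavy chains to B2m, and Tap2 to Tap1. The median of Psmb8 to Psmb5 is 0.361 and 0.401 at ZT1 and ZT19 and 0.975 and 0.758 at ZT7 and ZT13, and single libraries reach 7.80 for heavy chains to B2m and 13.5 for Tap2 to Tap1.

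Ciita, the class II transactivator, was lowest at ZT19. It had 0.255, 8.92, 11.6, 0 and 12.7 normalized counts at ZT19, from 1, 27, 18, 0 and 23 reads, and 101, 13.4, 67.7, 109.9 and 16.8 at ZT1. At ZT7 it had 25.8, 2.86, 61.4, 143 and 126, and at ZT13 112, 57.3, 131, 74.6 and 0. All ZT19 libraries were below all ZT1 libraries, but ZT7 and ZT13 each held 1 library in the ZT19 range. The difference of ZT19 was -3.18 ± 1.38 from ZT1, -3.39 ± 1.39 from ZT7 and -3.45 ± 1.39 from ZT13 (log2, SE), with adjusted p-values of 0.178, 0.183 and 0.173 in edgeR. Summed markers of leukocytes also had their lowest median at ZT19, at 204, 106, 175 and 18.7 normalized counts in the order ZT1, ZT7, ZT13 and ZT19 for the leukocyte list. In the same order the macrophage list had 792, 694, 626 and 351, the T cell list 21.1, 74.6, 29.8 and 1.32 and the dendritic and Langerhans cell list 814, 836, 725 and 676. The B cell list, at 146, 279, 114 and 193, was lowest at ZT13 instead. The part of these cells in the levels of Ciita and of the class II chains was not tested.

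Low Ciita went with a high share of reads on genes and with fewer genes detected. The 9 libraries over 30% held 12477 to 18768 genes with a count, and the 11 under 30% held 19055 to 21697. In the 9 libraries over 30% it ran from 0 to 57.3 normalized counts, with a median of 8.92, and in the 11 under 30% from 13.4 to 143, with a median of 101. Within ZT7 it had 25.8 and 2.86 in the 2 libraries over 30% and 61.4 to 143 in the 3 under it, and within ZT13 it had 57.3 and 0 against 74.6 to 131. With the share as a covariate, the difference of ZT19 from ZT13 was 0.26 ± 1.11 (log2, SE; adjusted p 0.950 in edgeR) and that of ZT19 from ZT1 0.70 ± 1.42 (adjusted p 0.929). In this fit Ciita was no longer lower at ZT19. The shares of ZT1 (20.2% to 29.5%) and ZT19 (35.0% to 81.6%) did not overlap, so their comparison in this fit is an extrapolation. Both libraries with 0 reads of Ciita (ZT13 replicate 5 and ZT19 replicate 4) were over 30%, as were 4 of the 5 libraries with a class II chain or Cd74 at 0, and the part of the number of genes detected was not tested.

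**Figure D5:**
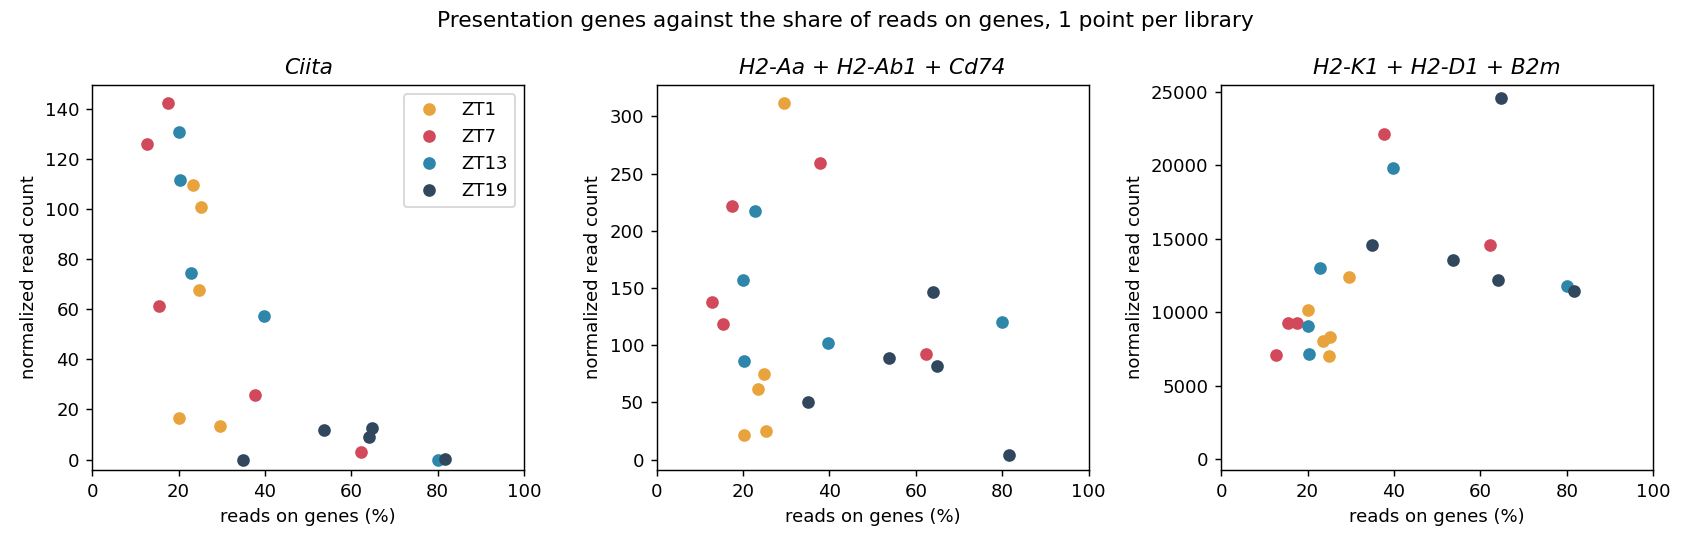
Normalized read counts of Ciita, of H2-Aa, H2-Ab1 and Cd74 summed, and of H2-K1, H2-D1 and B2m summed, against the percent of reads on genes, 1 point per library coloured by time point. Ciita falls from up to 143 in libraries under 30% to at most 57.3 in those over 30%, while the summed class II chains run from 21.6 to 312 under 30% and from 3.57 to 259 over 30%.

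The class II chains had no common direction in this split. Medians over and under 30% were 50.9 and 12.1 normalized counts for H2-Aa, 27.4 and 53.6 for H2-Ab1 and 27.6 and 38.7 for Cd74, and the ranges overlapped for each. Within ZT13, Cd74 had 5.30 and 36.5 over 30% and 38.4 to 97.2 under it. H2-Aa, the alpha chain, had 5.31, 8.39, 36.1, 9.29 and 4.79 normalized counts at ZT1 and 101, 28.0, 21.2, 72.8 and 19.3 at ZT7. It had 12.1, 0, 5.95, 84.2 and 60.3 at ZT13 and 0, 50.9, 51.7, 2.58 and 54.1 at ZT19. Its ZT7 mean was the highest, with a difference of 1.91 ± 1.43 from ZT1 (log2, SE; adjusted p 0.999 in edgeR). H2-Ab1, the beta chain, had 14.6, 193, 37.6, 13.9 and 11.97 at ZT1 and 106, 27.4, 63.5, 71.3 and 64.3 at ZT7. It had 0, 96.5, 53.6, 94.9 and 23.1 at ZT13 and 0, 39.99, 37.5, 25.8 and 0 at ZT19. At ZT1, replicate 2 alone set its mean of 54.2 ± 78.2 (SD, n = 5), and the difference of ZT19 from ZT7 was -1.68 ± 1.37 (log2, SE; adjusted p 0.506 in edgeR). Cd74, the invariant chain, was also highest in ZT1 replicate 2, at 111, and averaged 32.2 ± 46.4 at ZT1 and 51.0 ± 17.2 at ZT7, then 50.3 ± 35.8 at ZT13 and 21.7 ± 22.1 at ZT19 (SD, n = 5). Its difference of ZT19 from ZT7 was -1.23 ± 1.27 (log2, SE; adjusted p 0.614 in edgeR).

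Of 60 other genes of the pathway, 55 passed the filter, and edgeR called 0 of them in any test. DESeq2 called 1 (H2-T23) among the 4 time points (3.22% of all genes). Between ZT19 and ZT1 it called 7 (10.4%), namely H2-T23, H2-M3, Pdia3, Ifngr1, Nfya, Psmb6 and Cd86. Between ZT19 and ZT7 it called 3 (10.8%), namely H2-Q2, Nfya and Cd86. Between ZT19 and ZT13 it called 4 (9.26%), namely Psme2, Nfya, Psmb5 and Cd86. Among the 4 time points, 12 of the 55 had an unadjusted edgeR p under 0.05, against 15.7% of all genes tested: 3 of 10 other class I heavy chains, 2 of 10 genes of class I loading, 0 of 12 of the class II chains and loading, 4 of 14 regulators, 3 of 3 constitutive proteasome subunits and 0 of 6 co-stimulatory and co-inhibitory genes. H2-T23, which encodes the non-classical heavy chain Qa-1, averaged 2226 ± 217 normalized counts at ZT1 and 3195 ± 1525 at ZT7, then 3135 ± 1051 at ZT13 and 5227 ± 2065 at ZT19 (SD, n = 5). It differed by 1.23 ± 0.36 between ZT19 and ZT1 (log2, SE; adjusted p 0.093 in edgeR). Irf1, an interferon-induced activator of class I genes, averaged 374 ± 88.3 at ZT1 and 440.5 ± 273 at ZT7, then 381 ± 225 at ZT13 and 709 ± 32.1 at ZT19 (SD, n = 5), with a difference of ZT19 from ZT1 of 0.92 ± 0.39 (adjusted p 0.162). Nlrc5, the class I counterpart of Ciita, averaged 104, 123, 133 and 94.7 in the same order. H2-Q4 averaged 70.97, 47.8, 53.7 and 35.2. Some of the heavy chains are close copies of each other, and H2-Q6 and H2-Q7 were listed at 0 in all 20 libraries. Counts among the class I heavy chains are therefore uncertain where reads fit several genes.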

How the data were processed

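The authors aligned single-end reads of 100 nt to mouse genome build mm10 with STAR and deposited, per sample, raw read counts per gene symbol from HTSeq-count 1.0.0. The annotation and the strand setting are not given in the sources used here, and reads that fit several places are set apart by this counter, which lowers near-identical genes. Rows naming no gene were left out of all tests. Genes were tested with edgeR 4.0.16 in R 4.3.3, with TMM scaling and filterByExpr by time point. Quasi-likelihood F-tests had 3 degrees of freedom among time points and 2 for a 24-h rhythm, with Benjamini-Hochberg adjustment over 19209 genes. DESeq2 1.42.0 was the alternative. The fits were checked on simulated counts with large changes in well-covered genes and the same spread for every gene. That check does not measure what could be detected for these members. The share of reads on genes entered one alternative as the log2 odds of a read falling on a gene. Normalized counts are counts divided by TMM-scaled library size, set so that a library of typical (geometric mean) size keeps its counts. Levels per kb use the joined length of all GENCODE M21 exons of a gene, over all its transcripts. The precision follows the depth of 4475111 to 42002363 counts per library. The likeness of genes is Pearson's r of log2(normalized count + 1), with time point means removed, over genes averaging at least 100 normalized counts. Named beside the members were genes called in any test, 12 pathway genes listed whatever their values, and the 5 genes most like each of H2-K1, B2m, H2-Ab1 and Cd74. The members, the lists and these rules were chosen with earlier results of these data known. Replicates are pools of separate mice, and same-numbered replicates of different time points are not said to be related. Promoter windows are from RefSeq, build GRCm38.p6, and 7 members were searched. H2-Ab1 and Ciita had no window, and Cd74 was left out.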

Additional observations from a re-analysis of the deposited data

Results flagged for a closer look

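On the scale of log2(normalized count + 1), a member had 1 library far from the other 4 in 2 of 40 groups of 5 libraries, and about 2 are expected by chance. Psmb8 stood at 545 normalized counts (325 reads) in ZT1 replicate 2, with the next library at 184, a gap of 0.841 of the group's range in log2 (0.913 in normalized counts). H2-Ab1 and Cd74 were also highest in this library. Ciita was at 0 in ZT13 replicate 5, with the next library at 57.3, a gap of 0.833 of the range in log2 but 0.437 in normalized counts, and this library had 79.9% of its reads on genes. In normalized counts, B2m in ZT7 replicate 1 (0.818), H2-Aa in ZT1 replicate 3 (0.856) and H2-Ab1 in ZT1 replicate 2 (0.858) would also stand apart, past the critical value of 0.71, and Ciita would not.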

How the results depend on the processing

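Under edgeR, 0 members were called under every alternative run, in each test it allowed: other scalings (DESeq2 size factors, upper quartile), other filters (every gene with at least 1 count, at least 10 counts in at least 10 libraries), the percent of reads on genes in the fit, each library left out, only the time points compared, and, added after seeing the data, only libraries over or under 30% of reads on genes. DESeq2 called 2 members between ZT19 and ZT1, 1 between ZT19 and ZT7 and 1 between ZT19 and ZT13. Of the other pathway genes it called 1 among the 4 time points, 7 between ZT19 and ZT1, 3 between ZT19 and ZT7 and 4 between ZT19 and ZT13, where edgeR called 0. With each library left out, edgeR called 0 to 2 other pathway genes between ZT19 and ZT1 (2 without ZT19 replicate 4, where genes called over all tested went from 3 to 902) and 0 to 2 between ZT19 and ZT13 (2 without ZT13 replicate 5, where they went from 113 to 853). The B2m difference of ZT19 from ZT1 ran from -0.0049 (without ZT19 replicate 5) to 0.74 with each library left out. Other differences moved too, that of H2-Aa for ZT7 from ZT1 between 1.45 (without ZT7 replicate 1) and 2.77 (without ZT1 replicate 3), that of Psmb8 for ZT7 from ZT1 between 0.65 (without ZT7 replicate 1) and 1.54 (without ZT1 replicate 2) and that of Cd74 for ZT7 from ZT19 between 0.91 (without ZT19 replicate 3) and 1.94 (without ZT19 replicate 2). The Ciita difference of ZT13 from ZT19 turned to -0.26 with the percent of reads on genes in the fit. The cause was not tested. The count of genes called between ZT19 and ZT13 was 113 and went from 54 (share of reads on genes) to 1775 (DESeq2), and that between ZT19 and ZT1 was 3 and went from 0 to 1987. The median difference of all genes between ZT19 and ZT1 was -0.39 and ran from -0.62 (every gene with a count) to 0.11 (share of reads on genes).

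Mean correlations of same-numbered deviations were -0.038 to 0.174 over the 6 pairs of time points. Single values ran from -0.541 to 0.343, and those of ZT13 and ZT1 from 0.079 to 0.325. Replicates with different numbers were not compared, so pairing by number was not tested. With the replicate block, 0 members were called in each of the 8 tests, and 58 genes of all tested between ZT19 and ZT13. Class II genes rest on 789 to 949 reads each over 20 libraries, and with 5 libraries a time point their SEs of 1.25 to 1.43 on the log2 scale limit what could be detected.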

Other observations

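Within the class I heavy chains outside the members, H2-T24 was chosen after its values were seen. It averaged 501 ± 569 normalized counts at ZT1 and 126 ± 87.1 at ZT7, then 105 ± 72.3 at ZT13 and 143 ± 121 at ZT19 (SD, n = 5). The ZT1 libraries ran from 52.6 to 1310, so that mean is uncertain. The difference of ZT19 from ZT1 was -1.81 ± 0.88 (log2, SE; adjusted p 0.228 in edgeR), opposite in sign to that of H2-K1, H2-D1 and H2-T23. H2-L had 122 reads over the 20 libraries.

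Among the regulators and the co-stimulatory and co-inhibitory genes, also chosen after their values were seen, Nfya, a subunit of the NF-Y complex, averaged 42.9 ± 29.8 normalized counts at ZT19 and 243 ± 124 at ZT1, 261 ± 211 at ZT7 and 225 ± 178 at ZT13 (SD, n = 5), with single libraries as low as 2.29 at ZT7 and 17.5 at ZT13. Cd86, a co-stimulatory ligand of antigen-presenting cells, averaged 0.52 ± 1.15 at ZT19 and 20.2 ± 11.2 at ZT1, 15.5 ± 27.0 at ZT7 and 13.5 ± 16.0 at ZT13, from 170 reads in all and with 8 of 20 libraries at 0. The differences of ZT19 from ZT1 were -2.51 ± 0.88 for Nfya (log2, SE; adjusted p 0.109 in edgeR) and -5.40 ± 2.14 for Cd86 (adjusted p 0.144). DESeq2 called both genes between ZT19 and each of ZT1, ZT7 and ZT13, where edgeR called neither. The other NF-Y subunits did not share the low ZT19 level of Nfya: Nfyc averaged 441 ± 134 at ZT19 and 258, 362 and 235 at ZT1, ZT7 and ZT13 (0.77 ± 0.35 for ZT19 from ZT1; adjusted p 0.188), and Nfyb 504 ± 135 at ZT19 and 577, 655 and 436. Cd40, a receptor through which T cells signal to antigen-presenting cells, averaged 323 ± 230.1 at ZT19 and 141 ± 44.8 at ZT1. It averaged 250 ± 121 at ZT7 and 188 ± 108 at ZT13 (SD, n = 5). Neither edgeR nor DESeq2 called it between ZT19 and ZT1.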
